A study of Mus musculus with 6 samples.

Results

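The genes described here are 48 genes that drive chromosomes through mitosis, the stage of the cell cycle in which a cell condenses its chromosomes, attaches them to the spindle and divides. They were chosen by name, and every probe set of the array whose annotation gives a member's symbol was taken, which gave 115 probe sets that name 1 member alone. A further 3 probe sets name a member beside other genes and were not used to represent it. The 48 genes stand among 20724 genes on the array. The brightest probe set, by mean value in the 6 samples, stands for a gene throughout. For 15 of the 48 it was the only one, and no member had more than 5.

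Mitotic genes are silent in resting cells and are transcribed together from late S phase to the end of mitosis. In marrow, dividing progenitors carry these transcripts, and mature granulocytes, which no longer divide, do not. The transcription factors B-MYB and FOXM1 switch the programme on with the MuvB complex, and the DREAM complex holds it off in resting cells. MuvB binds a short promoter element called CHR, and the factor NF-Y binds the CCAAT box that often accompanies it. The products act in order: cyclins and kinases start mitosis, the kinetochore and its checkpoint hold the chromosomes until all are attached, and the anaphase-promoting complex, APC/C, then releases them. In bulk marrow, fewer dividing cells and less RNA per dividing cell cannot be told apart.

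The RNA was extracted from marrow of leukaemic NUP98/HOXD13 transgenic mice. NUP98/HOXD13 is a fusion gene of human leukaemia whose carriers develop myelodysplasia that can turn into acute leukaemia. All 6 samples carry the transgene and MxCre, an inducible recombinase, so neither separates the groups. The group called KO, with 3 samples, has floxed alleles of the repressor gene Gfi1b (genotype Gfi1bfl/fl MxCretg NUP98/HOXD13), and the group of 3 called wildtype has wildtype Gfi1b (Gfi1b wt MxCretg NUP98/HOXD13). Age, sex and treatment are not given in the sources used here, nor is it said that each sample is a separate mouse, so a p-value reflects only how far these samples scatter. The values are log2 intensities normalized by the authors with RMA on Affymetrix MG-430_2.0 arrays, 1 array per sample. Precision is limited by having 3 arrays a group.

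In all lists of values, replicates 1, 2 and 3 of a group follow in that order. The log2 value of the targeted gene, Gfi1b, was 10.88, 11.63 and 11.67 in the KO samples and 5.83, 6.37 and 4.38 in wildtype. It was thus higher in the samples labelled KO (limma adjusted p = 0.00714, exact two-sided permutation p = 0.1, the smallest possible with 3 against 3). Which part of Gfi1b was removed is not given in the labels, so this reading cannot check them, and "KO" below always means samples so labelled. The mean of 6 genes found in all leukocytes was 6.86, 6.91 and 8.19 in KO and 9.76, 8.97 and 10.12 in wildtype. The mean of 9 neutrophil genes lay between 4.04 and 8.15 in the samples labelled KO and between 12.03 and 13.75 in wildtype, with 6 of the 9 lower at a limma adjusted p under 0.05. The mean of 6 monocyte genes was 5.03, 4.14 and 3.86 in KO and 10.19, 7.80 and 9.51 in wildtype, and all 6 were lower by that test. For 3 MHC class II genes the mean was 5.12, 5.04 and 4.48 against 10.35, 6.80 and 7.28, and 0 of the 3 passed, with an unadjusted p under 0.05 in all 3. The mean of 10 T cell genes reached 8.24 in wildtype replicate 2, where the other 5 samples had 4.07 to 4.63. All 9 neutrophil genes had their lowest value in KO replicate 3. The mean of 10 erythroid genes was 9.87, 9.44 and 7.60 in KO against 6.96, 8.50 and 6.40 in wildtype. KO replicate 3 thus had the highest leukocyte mean and the lowest neutrophil and erythroid means of the KO samples.

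KO replicate 3 stood apart from the other samples in the mitotic genes. The mean log2 value of the 48 genes was 7.40, 7.47 and 5.92 in KO against 7.01, 7.30 and 7.03 in wildtype. KO replicate 3 therefore read lowest, and KO replicates 1 and 2 read above all wildtype samples. Results are given below with and without KO replicate 3. The part of the leukocyte, neutrophil, monocyte, MHC class II, erythroid and T cell markers in these differences was not tested.

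**Figure D1:**
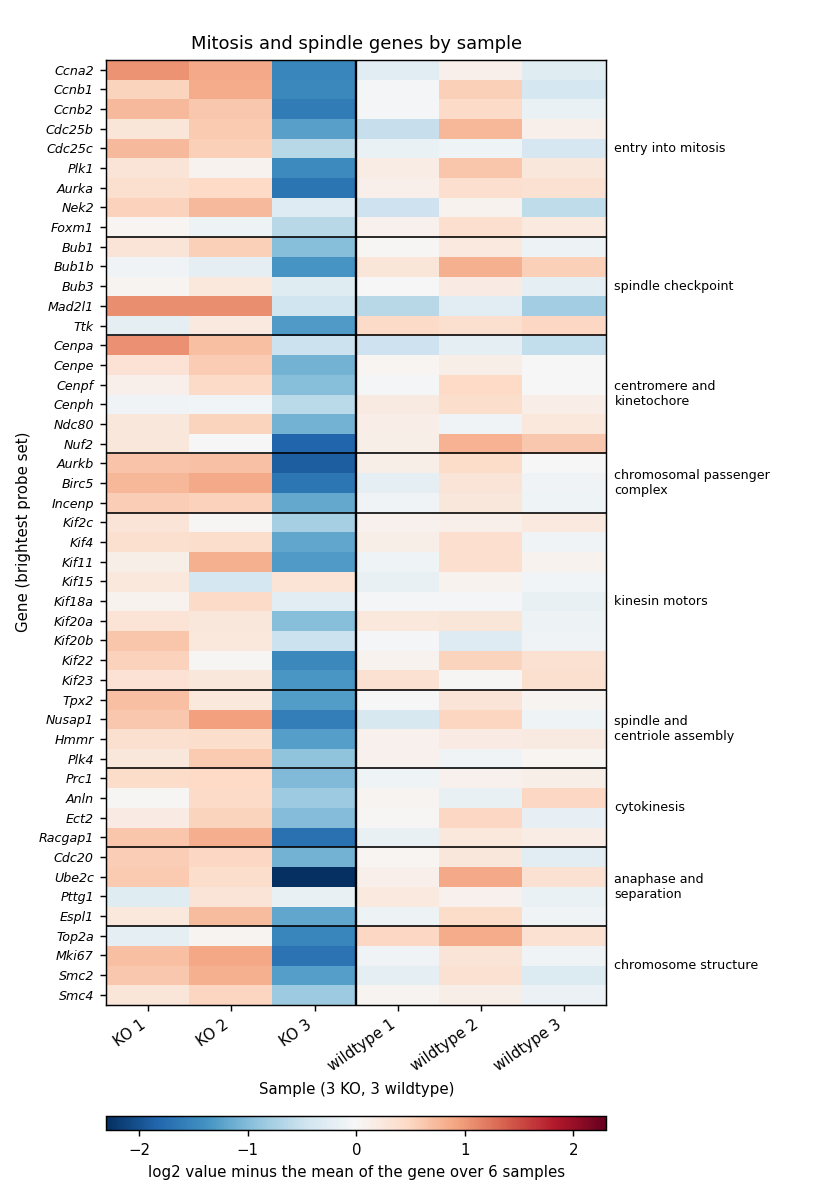
Each row is 1 of the 48 genes at its brightest probe set, each column 1 sample, and the colour is the log2 value minus the mean of that gene over the 6 samples. Lines separate the 9 roles and the 2 groups. KO replicate 3 holds the lowest value in 43 of the 48 rows.

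The promoters of these genes share letters that the choice by name did not use. RefSeq promoters (GRCm38.p6, 250 bases before to 50 after the gene start) were matched by symbol for 40 of the 48 genes. Both strands were searched for the CHR letters TTTGAA or TTCGAA and for CCAAT. A CHR match stood in 29 of the 40 genes (72.5%), against 21.7% of the 27025 genes in the promoter table. CCAAT stood in 28 genes (70%), against 41.1% of all, and both motifs stood in 24 genes (60%), against 9.65% of all. No CHR match overlapped a CCAAT match in these promoters. A match describes letters and does not show that a factor binds. Mad2l1, Nuf2, Birc5, Kif18a, Nusap1, Plk4 and Pttg1 held neither motif in the window searched.

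The 150 bases before the gene start are shown for 7 genes, 5′ to 3′ on the strand of the gene, with CHR and CCAAT letters of either strand in capitals. Ccnb2, Cdc20 and Ube2c carry several of the elements, Top2a and Bub1b were among the genes that read lower in the samples labelled KO, and Mad2l1 and Cenpa had the largest positive differences between KO and wildtype among the 48. The stretches lie at chr9:70421555-70421704 (minus strand) for Ccnb2, chr4:118437344-118437493 (minus) for Cdc20, chr2:164769779-164769928 (plus) for Ube2c and chr11:99024190-99024339 (minus) for Top2a. Those of Bub1b, Mad2l1 and Cenpa lie on the plus strand at chr2:118598061-118598210, chr6:66535071-66535220 and chr5:30666736-30666885.
Ccnb2: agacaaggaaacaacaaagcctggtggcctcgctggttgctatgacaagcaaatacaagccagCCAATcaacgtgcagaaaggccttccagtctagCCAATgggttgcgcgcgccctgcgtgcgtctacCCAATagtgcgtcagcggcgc
Cdc20: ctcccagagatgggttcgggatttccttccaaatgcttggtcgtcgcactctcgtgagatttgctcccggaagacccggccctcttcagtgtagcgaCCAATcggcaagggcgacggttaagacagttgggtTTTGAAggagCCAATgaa
Ube2c: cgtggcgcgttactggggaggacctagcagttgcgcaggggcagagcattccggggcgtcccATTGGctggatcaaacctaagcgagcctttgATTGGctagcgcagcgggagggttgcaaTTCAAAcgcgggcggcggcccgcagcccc
Top2a: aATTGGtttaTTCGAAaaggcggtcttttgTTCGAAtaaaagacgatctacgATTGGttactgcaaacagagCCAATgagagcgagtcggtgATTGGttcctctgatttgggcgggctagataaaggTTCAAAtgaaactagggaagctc
Bub1b: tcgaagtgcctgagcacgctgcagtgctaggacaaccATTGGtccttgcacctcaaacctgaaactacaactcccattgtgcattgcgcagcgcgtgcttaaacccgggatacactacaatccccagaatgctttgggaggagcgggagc
Mad2l1: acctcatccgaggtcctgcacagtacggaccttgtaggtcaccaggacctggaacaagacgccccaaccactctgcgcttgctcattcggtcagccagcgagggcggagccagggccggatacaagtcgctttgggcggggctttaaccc
Cenpa: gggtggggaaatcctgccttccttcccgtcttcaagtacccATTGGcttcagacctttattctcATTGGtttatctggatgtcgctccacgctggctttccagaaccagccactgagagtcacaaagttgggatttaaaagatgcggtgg
The Top2a stretch holds 4 CCAAT and 3 CHR matches, the Cdc20 stretch 2 and 1, and the Mad2l1 stretch none. In Cdc20 the CHR letters begin 18 bases before the gene start, between the CCAAT boxes. The Ccnb2 stretch holds 3 CCAAT boxes, and its CHR matches lie outside it. In the 7 genes with neither motif, KO replicate 3 minus the mean of KO replicates 1 and 2 lay between -2.49 and -0.18 on the log2 scale (median -1.53). In the 33 genes with a match the median was -1.54, and no test was made of this.

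**Figure D2:**
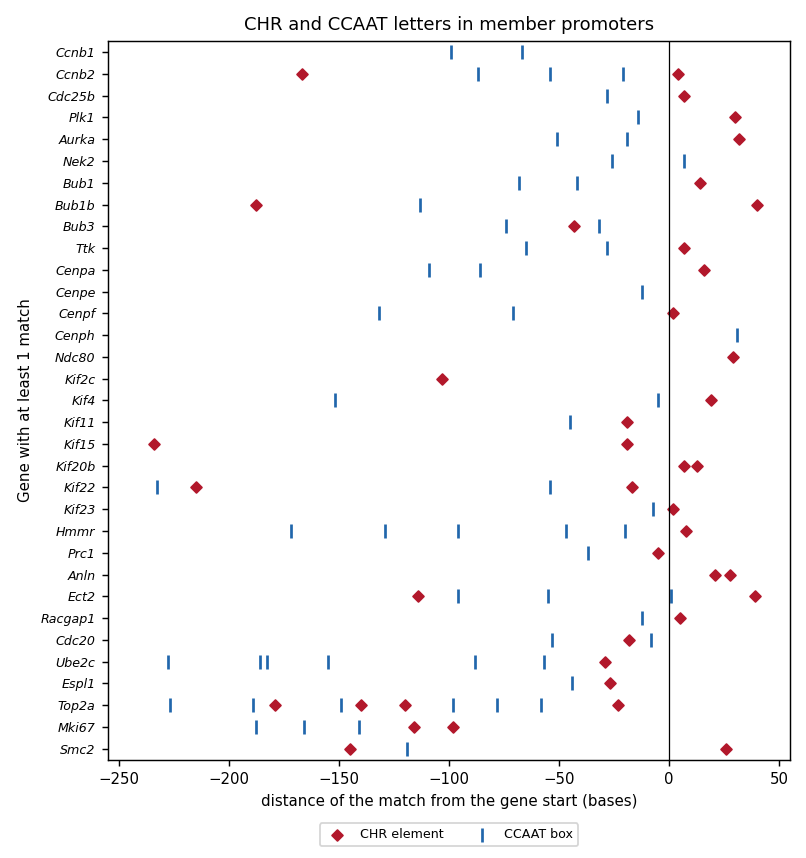
Positions of CHR letters (diamonds) and CCAAT letters (bars) in the promoters of the genes with at least 1 match, as distance in bases from the annotated gene start, which is the vertical line. For genes with several promoters the first is drawn. Of 59 CCAAT matches, 38 lie within 100 bases before the start, and of 41 CHR matches 10 lie there and 20 lie at or after the start.

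No mitotic gene passed the comparison of the groups. In limma over 45037 probe sets, 0 of the 48 genes and 0 of their 115 probe sets had an adjusted p under 0.05, where 3.91% of all genes (1.92% higher and 1.99% lower in KO) and 2.93% of all probe sets did. The smallest adjusted p was 0.176 at a brightest probe set and 0.108 at any probe set. The authors' deposited table likewise lists 0 member probe sets past its adjusted p. An unadjusted p under 0.05 was found in 5 genes, Top2a, Bub1b, Cenph and Foxm1 lower and Mad2l1 higher, which is 10.4% where 20.3% of all genes had one. It was found in 10 of the member probe sets (8.70%), beside 16.9% of all probe sets. The groups did not overlap in 5 genes, all lower in the samples labelled KO, where 25.2% of all genes were without overlap. These were Bub1b, Cenph, Foxm1, Ttk and Top2a. The median log2 difference of the 48 genes was -0.16, against 0.01 over all genes, and single genes lay between -1.11 and 1.13. Of 19 members with 2 or more probe sets that average above 5, 11 had the same sign at all of these.

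The spread within the KO group was wide in this programme. In all 48 genes the SD was larger among the samples labelled KO than in wildtype, while this held for 44.8% of the 7198 genes that average above 5. The median SD was 0.89 in KO and 0.22 in wildtype (n = 3 each). KO replicate 3 was the lowest of the 6 samples in 43 genes (89.6%), against 19.1% of the genes above 5. Probe sets of one gene gave the same picture, since 67 of the 73 member probe sets that average above 5 were lowest there. Relative to the mean of KO replicates 1 and 2, KO replicate 3 read lower by at least 1 in 39 genes (81.2%), against 5.92% of the genes above 5. The median gap was -1.53, a 2.90-fold lower level, and the widest was -2.86. KO replicates 1 and 2 themselves differed by a median of 0.21. In wildtype, replicate 2 was the highest of the 3 in 38 of the 48 genes (79.2%), against 29.8% of the genes above 5. That is also the sample with the high T cell genes, and it had the highest erythroid mean of the wildtype samples (8.50). Its means of the genes found in all leukocytes (8.97), of the monocyte (7.80) and of the MHC class II genes (6.80) were the lowest in wildtype. The part of any of these was not tested.

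Without KO replicate 3 most members read higher in KO. This sample was singled out because the 48 genes read low in it, so leaving it out raises most of their differences by construction. It also narrows the spread of most of them among the KO samples, which lowers their p-values. The shares over all genes do not carry that choice, so nothing is concluded from an excess of members over them. For the same reason, adjusted p-values of members without KO replicate 3, here and below, are description and not support for a difference. The median log2 difference was 0.35 (against -0.02 over all genes), with 38 members higher and 10 lower in KO, where 10 had been higher and 38 lower with all samples. Of the 48 genes, 2 then had a limma adjusted p under 0.05, Mad2l1 and Cenpa, both higher, or 4.17% beside 1.86% of all genes. Of the member probe sets 3 passed, beside 1.41% of all probe sets. An unadjusted p under 0.05 was then found in 22 members (45.8%), beside 18.4% of all genes. KO replicates 1 and 2 both lay above the 3 wildtype values in 23 genes (47.9%, beside 17.4% of all genes) and both below them in 5, or 58.3% without overlap beside 35.5% of all genes.

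**Figure D3:**
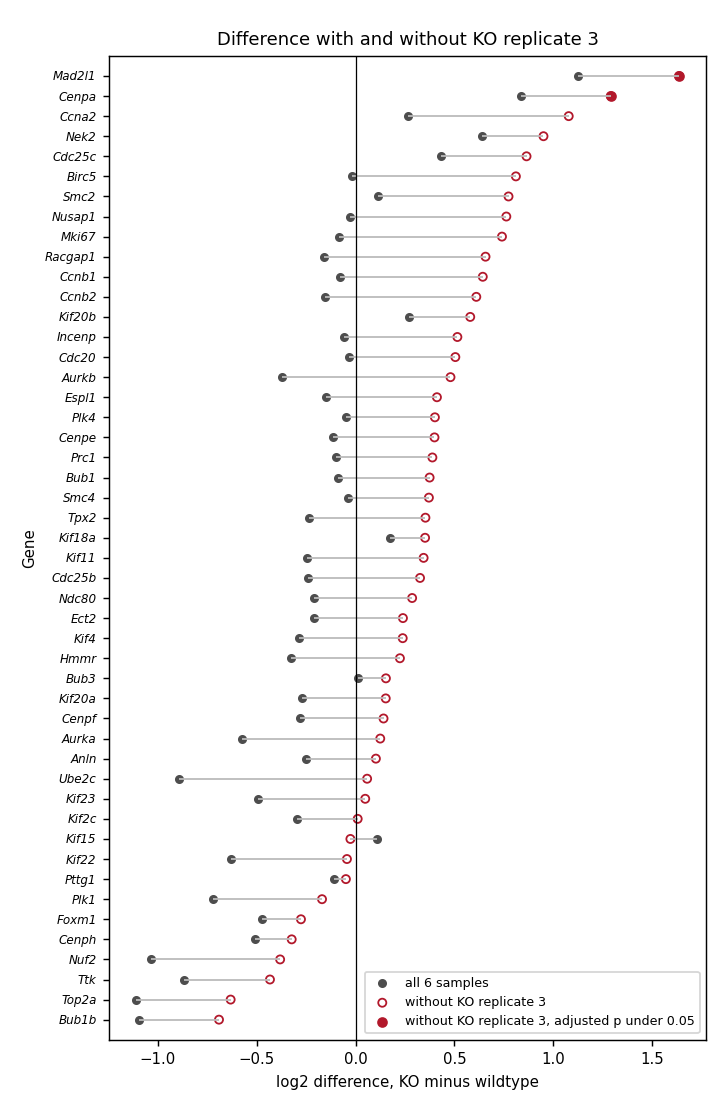
The log2 difference of each gene, KO minus wildtype, from limma with all 6 samples (grey) and without KO replicate 3 (open red, or filled red for an adjusted p under 0.05). The median moves from -0.16 to 0.35, and Mad2l1 and Cenpa alone among the 48 genes are filled. KO replicate 3 was singled out because these genes read low in it, so a filled point is not support for a difference.

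Among the genes that start mitosis, Ccnb1, the cyclin that activates Cdk1, read 8.92, 9.26 and 6.93 in KO against 8.37, 8.96 and 8.002 in wildtype. KO replicate 3 lay below all other samples, and the log2 difference was -0.08 with a 95% interval from -1.54 to 1.39. A further probe set of Ccnb1, averaging 7.48, differed by 0.31 (adjusted p = 0.862). Without KO replicate 3 it gave 1.14, where the brightest gave 0.64. Plk1, the polo kinase of mitotic entry and spindle assembly, read 7.46, 7.25 and 5.71 against 7.34, 7.81 and 7.43, with overlapping groups. Foxm1, a transcription factor that activates this programme, read 6.43, 6.27 and 5.76 against 6.49, 6.78 and 6.63. All wildtype values of Foxm1 lay above those of the KO samples, by a log2 difference of -0.48 (SE 0.20, adjusted p = 0.294). For Foxm1, KO replicate 3 minus the mean of the other KO samples was -0.60, where the median member had -1.53. A further probe set of Foxm1 differed by -0.35, also without overlap. Another differed by -0.50 with overlapping groups, at 5.50, 5.45 and 4.50 in KO and 5.35, 5.83 and 5.77 in wildtype. Nek2, a kinase of centrosome separation, read 6.21, 6.43 and 5.39 against 5.22, 5.77 and 5.11, with its lowest value in wildtype replicate 3 (log2 difference 0.64, adjusted p = 0.362). The cyclin genes Ccna2 and Ccnb2, the Cdk1-activating phosphatase genes Cdc25b and Cdc25c and the centrosomal kinase gene Aurka differed by -0.57 to 0.43 (adjusted p from 0.616 to 0.932), and KO replicate 3 minus the mean of the other KO samples was -2.44 to -1.29 in these 5. Ccna2 differed by 1.08 without KO replicate 3, with an adjusted p of 0.0572. A further probe set of Ccna2 differed by 0.72 there (adjusted p = 0.143). With all samples the brightest gave 0.27 and the further one -0.26.

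The spindle checkpoint genes lay on both sides of 0. Bub1b, which encodes the checkpoint protein BubR1, read 6.59, 6.48 and 5.33 in KO against 6.96, 7.49 and 7.23 in wildtype. Every KO value lay below every wildtype value, 2.13-fold on average (log2 difference -1.09, SE 0.35, limma adjusted p = 0.176, exact two-sided permutation p = 0.1). A further probe set of Bub1b that averages above 5 gave -1.10. Without KO replicate 3 the difference of Bub1b was -0.69 (adjusted p = 0.165). Mad2l1, whose product Mad2 inhibits Cdc20 until all chromosomes are attached, read 9.67, 9.67 and 8.14 in KO and 7.95, 8.35 and 7.80 in wildtype. KO replicates 1 and 2 lay above all wildtype samples and KO replicate 3 among them. The mean of Mad2l1 was 9.16 ± 0.88 in KO and 8.03 ± 0.29 in wildtype (SD, n = 3), a difference of 1.13 with an adjusted p of 0.251. Without KO replicate 3 it was 1.64, or 3.11-fold (adjusted p = 0.032), and Mad2l1 rests on a single probe set. Of the others, the kinase genes Bub1 and Ttk and the gene of the Bub1 partner Bub3 differed by -0.87 to 0.01, Ttk at the low end with groups that did not overlap. The brightest probe set of Bub3 differed by 0.01, while another, averaging 4.36 in KO and 5.42 in wildtype, differed by -1.06 (adjusted p = 0.108).

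At the centromere and kinetochore, Cenpa and Cenph lay on opposite sides. Cenpa, the histone H3 variant that marks centromeres, read 9.72, 9.36 and 8.18 in KO against 8.19, 8.45 and 8.09 in wildtype. As in Mad2l1, KO replicate 3 lay within the wildtype range and the other KO samples above it. The difference was 0.84 (SE 0.38, adjusted p = 0.336), and 1.29 or 2.45-fold without KO replicate 3 (adjusted p = 0.0456). The other probe sets of Cenpa average below 5. Cenph, a subunit of the inner kinetochore, read 4.69, 4.71 and 4.14 against 4.97, 5.18 and 4.93, with all wildtype values higher (log2 difference -0.51, adjusted p = 0.228). The microtubule-binding Ndc80 and its partner Nuf2, the kinetochore motor gene Cenpe and the kinetochore protein gene Cenpf differed by -1.03 to -0.11, with Nuf2 lowest (adjusted p from 0.409 to 0.924).

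The chromosomal passenger complex corrects wrong attachments and its 3 genes showed deep gaps within the KO group. Aurkb, its kinase, read 7.86, 7.88 and 5.31 in KO and 7.34, 7.63 and 7.20 in wildtype. Birc5, which encodes survivin, read 9.09, 9.19 and 6.65 against 8.12, 8.62 and 8.24. The scaffold gene Incenp read 8.32, 8.29 and 6.58 against 7.69, 8.01 and 7.67. In each of them KO replicates 1 and 2 lay above all wildtype samples and KO replicate 3 below all of them. KO replicate 3 was 5.89-fold below the mean of the other KO samples for Aurkb, 5.61-fold for Birc5 and 3.30-fold for Incenp. The log2 differences over all samples were -0.37, -0.02 and -0.06, with standard errors of 0.68, 0.66 and 0.46. A second probe set of Aurkb that averages above 5 gave 0.09.

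Kinesins move chromosomes and slide spindle microtubules. Kif22, a motor on chromosome arms, read 8.79, 8.29 and 6.78 in KO and 8.35, 8.77 and 8.62 in wildtype (log2 difference -0.63, adjusted p = 0.593). Kif23, a motor of the central spindle that is needed for cytokinesis, read 7.34, 7.26 and 5.67 against 7.36, 7.03 and 7.37 (log2 difference -0.50, adjusted p = 0.646). In both, KO replicate 3 was the low sample and the other 5 overlapped. The microtubule-depolymerising Kif2c, the chromokinesin Kif4, the spindle motors Kif11 and Kif15, the chromosome-aligning Kif18a, and Kif20a and Kif20b of late mitosis differed by -0.30 to 0.27 (adjusted p from 0.649 to 0.858). Kif15 was the exception to the pattern among the kinesins, since its lowest value was that of KO replicate 2. Kif18a averaged 3.72 and 3.55 in the groups, at or below the array medians of 3.73 to 3.86, so its signal was dim. A further probe set of Kif11 differed by -0.74 (adjusted p = 0.2), while the brightest differed by -0.25.

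At their brightest probe sets, spindle assembly and cytokinesis genes shared KO replicate 3 as the lowest sample. The order of the other samples varied. Hmmr, a spindle and centrosome protein, read 6.76, 6.78 and 5.12 in KO against 6.48, 6.58 and 6.58 in wildtype. Tpx2, the activator of Aurora A on spindle microtubules, read 7.13, 6.67 and 5.14 against 6.43, 6.72 and 6.49. A further probe set of Tpx2, averaging 4.80, differed by -0.60 (adjusted p = 0.112). There all KO values lay below wildtype, with the lowest in KO replicate 2. The remaining probe sets of Tpx2 differed by -0.43 and -0.33. The microtubule-binding Nusap1 and the centriole duplication kinase gene Plk4 differed by -0.03 and -0.05. Anln, which encodes the contractile ring protein anillin, read 6.51, 6.92 and 5.65 against 6.55, 6.32 and 6.97. Ect2, the exchange factor that activates RhoA at the cleavage site, read 5.56, 5.88 and 4.37 against 5.40, 5.86 and 5.19. Prc1, which bundles the central spindle, and Racgap1, the Kif23 partner, differed by -0.10 and -0.16. The highest sample was KO replicate 1 for Tpx2, KO replicate 2 for Hmmr and Ect2 and wildtype replicate 3 for Anln. At the brightest probe sets of these 8 genes the adjusted p lay between 0.775 and 0.990. Racgap1 differed by 0.66 without KO replicate 3 (adjusted p = 0.155), and a further probe set of Racgap1 differed by 0.98 there (adjusted p = 0.0474).

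Among the genes of anaphase, Ube2c showed the widest gap and Pttg1 nearly none. Ube2c, the ubiquitin-conjugating enzyme of the APC/C, read 9.76, 9.56 and 6.80 in KO against 9.28, 10.03 and 9.50 in wildtype. KO replicate 3 was 7.24-fold below the mean of the other KO samples, and without it the group difference of Ube2c went from -0.89 to 0.06. Cdc20, the activator of the APC/C, read 9.41, 9.32 and 7.75 against 8.89, 9.11 and 8.58. Pttg1, which encodes securin, the inhibitor of separase, read 7.58, 8.15 and 7.68 against 8.08, 7.96 and 7.70. KO replicate 3 lay between the other KO samples for Pttg1. Espl1, the separase gene itself, differed by -0.15, and KO replicate 3 minus the mean of the other KO samples was -1.68.

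Of the genes of chromosome structure, Top2a had the lowest group difference of all members. Top2a, which encodes the topoisomerase that untangles sister chromatids, read 8.88, 9.15 and 7.58 in KO and 9.56, 9.94 and 9.43 in wildtype. All KO values lay below all wildtype values, by 2.16-fold on average (log2 difference -1.11, 95% interval from -2.08 to -0.14, adjusted p = 0.231). Without KO replicate 3 the difference of Top2a was -0.63. Mki67, the gene of the proliferation marker Ki-67, read 9.86, 10.06 and 7.48 against 9.10, 9.47 and 9.09. KO replicates 1 and 2 were thus above all wildtype samples for Mki67 and KO replicate 3 was 5.56-fold below their mean. The condensin gene Smc2 read 8.55, 8.73 and 6.66 against 7.72, 8.27 and 7.60, and its partner Smc4 differed by -0.04.

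To see genes that depart from the programme as a whole, each value was set against the mean of the 48 genes on the same array, a scaling chosen after seeing the data. The groups then did not overlap in 10 genes, 4 above and 6 below wildtype in KO (20.8%, beside 8.02% of all genes under the same scaling). The scaling is built from these genes, so their scatter shrinks by construction. Genes outside the list take on a shift in KO replicate 3 from its low mean. The share of all genes without overlap was 25.2% before the scaling. The excess of members was thus partly built in, and nothing is concluded from it. Mad2l1 stood 2.27, 2.20 and 2.22 above the mean in KO and 0.94, 1.05 and 0.77 above it in wildtype. KO replicate 3 lay with the other KO samples here. Cenpa stood 2.31, 1.89 and 2.26 above the mean against 1.18, 1.15 and 1.06. Top2a stood 1.48, 1.68 and 1.66 above it against 2.55, 2.64 and 2.40, and Bub1b at -0.81, -0.99 and -0.59 against -0.06, 0.19 and 0.20. The other 6 genes were Nek2 and Cdc25c, higher, and Aurka, Nuf2, Plk1 and Ttk, lower. At its other probe set, which averages 4.68, Cdc25c differed by -0.24 before scaling, where its brightest differed by 0.43. In limma on the scaled values 0 of the 48 genes passed (2.67% of all genes did), with an adjusted p of 0.622 for Mad2l1. The shift added to the other probe sets widens the variance that limma shares between probe sets, so this 0 is not separate evidence.

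**Figure D4:**
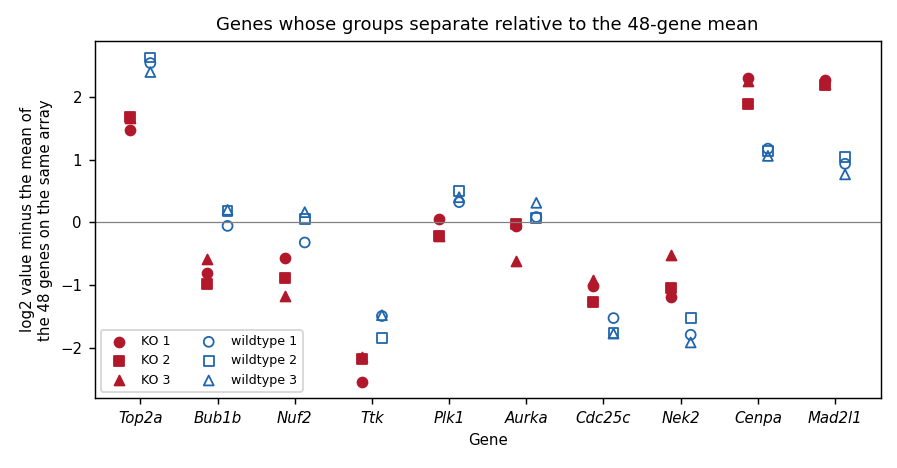
Log2 values minus the mean of the 48 genes on the same array, for the 10 genes whose KO (filled red) and wildtype (open blue) values do not overlap on this scale. Mad2l1 lies between 2.20 and 2.27 in KO and between 0.77 and 1.05 in wildtype, and KO replicate 3 (filled triangle) sits with the KO samples.

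Other cell cycle genes were read from lists that do not contain the 48. Of 61 other mitotic genes, 1 was higher and 2 lower at an adjusted p under 0.05 (median -0.14), where 3.91% of all genes passed. Bora, the Aurora A cofactor, averaged 6.02 ± 0.09 in KO and 5.11 ± 0.23 in wildtype (SD, n = 3; adjusted p = 0.0331). Pkmyt1, a kinase that restrains Cdk1, fell by 0.79 (adjusted p = 0.0473), and Pimreg, a mitotic regulator, fell by 1.33 (adjusted p = 0.0216). None of these 3 passed without KO replicate 3, with adjusted p of 0.0815, 0.114 and 0.0598. Of 42 DNA replication and S phase genes 0 passed (3 at an unadjusted p under 0.05, median -0.22), with Cdc45, a helicase component, at -0.97 (adjusted p = 0.0501) and Gins2, of the same helicase, at -0.67 (adjusted p = 0.154). KO replicate 3 was lowest in 27 of these 42 genes (64.3%) and in 42 of the 61 other mitotic genes (68.9%).

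KO replicate 3 also read below the other KO samples in several lists outside mitosis, though not in all. The median of KO replicate 3 minus the mean of the other KO samples was -0.82 in the other mitotic genes, -0.86 in the S phase genes, -0.71 in the G1 cyclins and CDK inhibitors and -0.60 in the cohesin genes. It was -0.31 in the E2F, RB and DREAM factors and -0.16 in the APC/C subunits. Outside the cell cycle it was -2.55 in the neutrophil markers and -1.38 in the erythroid markers. It was -0.78 in the MHC class II, -0.75 in the monocyte and -0.24 in the megakaryocyte markers. In the T and B cell markers it was -0.02 and -0.05. The progenitor markers (0.38) and the genes found in all leukocytes (1.41) went the other way, and the median over all genes was 0.06. Differences between lists were not tested. Beside the counts of these lists, 3.91% of all genes passed the adjusted p and 20.3% had an unadjusted p under 0.05. Of the 13 APC/C subunits 0 passed (2 at an unadjusted p under 0.05), with Fzr1, the G1 activator Cdh1, at 1.20 (adjusted p = 0.148) and Anapc11, the catalytic RING subunit, at -1.13 (adjusted p = 0.19). Of 11 cohesin genes 0 passed (4 at an unadjusted p under 0.05), with Wapl, the cohesin release factor, at 1.31 (adjusted p = 0.0743, and 0.0482 without KO replicate 3) and the core subunit gene Smc3 at 0.70 (adjusted p = 0.258). Of 12 G1 cyclin and CDK inhibitor genes 0 passed (4 at an unadjusted p under 0.05), with the G1 kinase gene Cdk6 at 1.43 (adjusted p = 0.0621) and Cdk2, the kinase of S phase entry, at -1.25 (adjusted p = 0.199). In the E2F, RB and DREAM list 1 of 19 genes rose. E2f8, an atypical E2F that represses its targets, averaged 8.79 ± 0.46 in KO and 7.49 ± 0.04 in wildtype (SD, n = 3; adjusted p = 0.0406), and 0.0138 was its adjusted p without KO replicate 3.

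**Figure D5:**
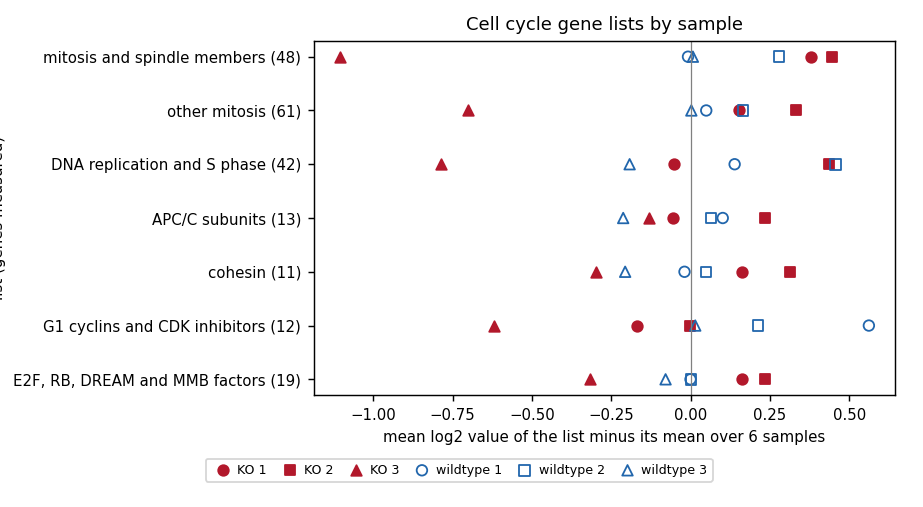
Mean log2 value of each cell cycle list in each sample minus the mean of that list over the 6 samples, with KO samples filled and wildtype samples open. The 48 mitosis and spindle genes average 5.92 in KO replicate 3, where the other samples have 7.01 to 7.47. The APC/C subunits average 6.55 in KO replicate 3 and 6.46 in wildtype replicate 3, the lowest sample for that list.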

How the data were processed

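Bone marrow RNA of 6 samples (200 ng each, per the labels) was hybridised to Affymetrix MG-430_2.0 arrays. The deposited values are log2 values made by the authors with RMA, per the submitters' processing notes, version not given in the sources used here. RMA corrects background, normalizes arrays by quantiles and summarises probes, so a value has meaning only beside the rest of its array, and differences of dim genes are compressed. The authors also deposited an annotated table with identical log2 values (largest difference 0), gene symbols, the authors' p-values and the authors' score, a signed fold change. Its columns give the group but no replicate number, so sample values were read from the value table and the annotated table served as the alternative, the reverse of the planned order.

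Of 45101 probe sets, 64 array controls were left out. limma 3.58.1 in R 4.3.3 (lmFit, eBayes) was fitted on the other 45037, as KO minus wildtype. Tests were two-sided, p-values were adjusted by Benjamini-Hochberg across these probe sets, and the threshold was 0.05. No filter on dim genes was used. Of the probe sets tested, 37285 name 1 gene. The unadjusted p-values differ from those of the authors by at most 4.95e-08. Intervals are 95% intervals from limma, and errors are SD over samples or SE from limma.

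The members, lists and tests were chosen with earlier results of these data known. Values in every sample are given for 8 fixed genes and the 2 with the smallest p-value in each of 9 roles, 23 in all; Ttk, Nuf2, Ccna2, Cdc25c, Aurka, Bub3, Kif15, Kif18a, Kif11 and Racgap1 were singled out after their values were seen. From other lists, every gene called or the 2 with the smallest p-value are named. Old symbols were updated through RefSeq (GRCm38.p6). A planned search of protein sequences was not run. On simulated data with 45037 probe sets in 3 against 3, limma recovered 30%, 70%, 98% and 100% of the probe sets changed by 1, 2, 4 and 6 on the log2 scale. Plots were made in Python 3.11.15 (matplotlib 3.10.9).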

Additional observations from a re-analysis of the deposited data

How the results depend on the processing

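The count of 0 called genes among the 48 held under the replicate block, a further quantile normalization, an intensity trend, robust moderation and array weights. It held too after a filter on dim probe sets, and with 1 probe set or the mean of all probe sets per gene. Removing probe sets ending in _x_at or _s_at and both other thresholds also left it at 0. The annotated table and the authors' statistics gave 0, but they repeat the main values and fit. Subtraction of the mean of the 48 genes, added after seeing the data, gave 0 as well, with the limit given above. Leaving out 1 replicate gave 0 to 2 genes called higher, 0 called lower and 0 to 3 member probe sets. The upper values came without KO replicate 3, when Mad2l1, Cenpa and a further probe set of Racgap1 passed. That sample was singled out by the low values of these 48 genes, so these passes are not separate support. The filter on dim probe sets, which tests 11842, called 1 member probe set, of Bub1b (-1.10, adjusted p = 0.0494). The median difference of -0.16 lay between -0.51 and 0.35 without 1 replicate, with a changed sign without KO replicate 3, and was -0.03 with array weights and 0.03 after subtraction of the mean. Over all genes, 810 were called in the main analysis, 1359 after the filter and 512 with the replicate block. Leaving out 1 replicate gave 33 to 1333, the least without KO replicate 2. In this balanced design the replicate block cannot change the differences, so the median of the 48 genes stayed at -0.16. Its p-values can change, and no member call did. Whether the shared replicate numbers pair the samples is not given in the labels. The deviations of samples with the same number from their group means correlated at -0.14, -0.03 and -0.02. With 3 arrays per group this cannot settle whether they are paired. With 3 arrays per group, differences near 1 on the log2 scale are often missed, and probe sets near the array medians show little difference.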
